A study of Mus musculus with 2 samples.

Results

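The ADAM, ADAMTS and MMP metalloproteases and their TIMP inhibitors were read in J-RGCs, a type of mouse retinal ganglion cell marked by the adhesion molecule gene Jam2, at postnatal day 6. The genes were chosen by symbol alone (Adam, Adamts, Adamtsl and Mmp genes with a number, and Timp1 to Timp4), which gave 84 of the 24015 gene symbols counted. A J-RGC-specific transgene made the cells fluorescent green, and they were taken from retina with magnetic beads followed by flow cytometry. The 2 libraries, A and B, form 1 group, and each pooled 5 to 6 animals of a separate litter. The strain is not stated in the labels, and there was no other cell type, age or treatment. All comparisons are therefore between genes or between the 2 libraries.

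The depth was 7916204 gene counts for library A and 13744313 for library B. A count divided by its library's gene total and scaled to 1000000 is called CPM here. Levels of different genes are compared only as CPM per kilobase of annotated exon (CPM/kb), since longer transcripts collect more reads. Detected means 1 CPM or more in A and also in B. For a gene without reads, 3 counts set the upper limit, which is 0.379 CPM in A and 0.218 CPM in B and covers counting error only. The labelled cell type was checked on its markers, and all 7 ganglion cell markers (summed 8204 CPM in A and 11149 CPM in B) and all 4 J-RGC markers were detected. Of the J-RGC markers Jam2 stood at 2344 CPM in A and 1203 CPM in B, and Tbr1, Sorcs3 and Cdh8 between 29.2 and 60.9 CPM in A and between 56.5 and 91.2 CPM in B. Genes of other cells were read as well, with summed levels of 530 and 431 CPM for 8 microglia genes (6 detected), 418 and 112 CPM for 5 mural cell genes (5 detected), 230 and 103 CPM for 4 bipolar cell genes (2 detected), 197 and 221 CPM for 5 Müller glia genes (4 detected) and 8.34 and 27.9 CPM for 6 endothelial genes (2 detected), A before B. The bipolar sum includes Grm6, at 96.4 CPM in A and 0.582 CPM in B. The lists for astrocytes, pigment epithelium, rods and cones, and amacrine cells summed to between 1.89 and 36.0 CPM in A and between 2.11 and 23.4 CPM in B.

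ADAMs are membrane proteins with a metalloprotease and a disintegrin domain, and the active ones cut the outer part of other membrane proteins from the cell surface (shedding). ADAMTS proteases are secreted and carry thrombospondin repeats, with which they bind and trim the extracellular matrix, whereas the related ADAMTS-like proteins have no protease domain. MMPs are secreted or membrane-anchored proteases of matrix and surface proteins, and TIMPs block MMPs and some ADAMs. In developing neurons these enzymes are known for cutting adhesion molecules, guidance receptors and growth factor precursors.

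Whether a member can act as a protease depends on a zinc-binding motif in which 3 histidines hold the metal and a glutamate beside the first of them takes part in catalysis. The coding sequences at this motif are shown because the 2 ADAM genes with the highest mean level per length in these cells lack it. Each run is the sense strand, 5′ to 3′, of the longest coding transcript in GENCODE M21 (GRCm38), with the codons of the 3 histidines and the glutamate in capitals. For Adam22, Adam23 and Adam11 the capitals mark the codons that align with them (protein alignment to Adam9 for the first pair, and to Adam22 for Adam11).
Adam10: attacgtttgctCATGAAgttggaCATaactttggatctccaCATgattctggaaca
Adam19: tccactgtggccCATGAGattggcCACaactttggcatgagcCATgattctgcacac
Adam9: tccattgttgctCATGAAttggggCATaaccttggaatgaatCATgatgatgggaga
Adam17: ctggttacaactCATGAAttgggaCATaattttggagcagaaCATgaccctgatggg
Adam22: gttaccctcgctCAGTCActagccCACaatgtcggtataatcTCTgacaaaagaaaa
Adam23: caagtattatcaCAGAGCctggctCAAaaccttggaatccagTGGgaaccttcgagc
Adam11: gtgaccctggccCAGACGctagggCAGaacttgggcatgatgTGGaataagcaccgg
Mmp24: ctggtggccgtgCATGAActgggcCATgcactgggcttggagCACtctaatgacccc
Mmp16: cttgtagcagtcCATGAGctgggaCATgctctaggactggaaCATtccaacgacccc
Mmp17: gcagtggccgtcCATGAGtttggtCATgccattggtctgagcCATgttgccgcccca
Adamts17: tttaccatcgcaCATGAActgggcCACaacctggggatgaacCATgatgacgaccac
Adamts9: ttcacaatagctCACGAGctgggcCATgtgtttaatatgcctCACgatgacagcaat

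In Adam10, Adam19, Adam9 and Adam17, in the 3 MMP genes and in both ADAMTS genes shown, all 3 histidine codons and the glutamate codon were found. Adam22 codes for histidine at 1 of the 3 positions and has no glutamate codon at the fourth, and Adam23 and Adam11 code for 0 of the 3 histidines. Over the longest coding sequence of every gene, the motif (with glycine or asparagine between the second and the third histidine) was found in 61 of the 84 members and in 0.339% of 21848 protein-coding genes, or 74 genes. The 23 members without it were the 3 LGI-receptor ADAM genes, Adam2, Adam3, Adam4, Adam5, Adam6a, Adam6b, Adam7, Adam18, Adam29, Adam32, Adamts8, all 5 ADAMTS-like genes and all 4 TIMP genes. Adamts8 has the histidines and the glutamate but serine at the turn, so its absence from the count comes from the strictness of the search. No member had the motif in a shorter transcript only.

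Of the 84 members, 32 were detected, or 38.1%, against 46.8% of all gene symbols and 53.1% of symbols matched to a protein-coding gene. A level of 10 CPM in each library was reached by 14 members, or 16.7%, against 27.8% of all symbols. In A alone 36 members reached 1 CPM, where 48.7% of all symbols did, and in B alone 43, where 54.7% did. No test was made of these shares. A count in either library was found for 64 members, and 70.7% of all symbols had one. The median level of those 64 members, as log2 of (CPM + 0.5) per kilobase, was -1.40 in A and -0.49 in B, against 0.81 in A and 1.34 in B for 16789 genes with a count and a length. Among detected genes the medians were 0.66 in A and 1.44 in B for the 32 members and 2.04 in A and 2.41 in B for all 11166.

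**Figure D1:**
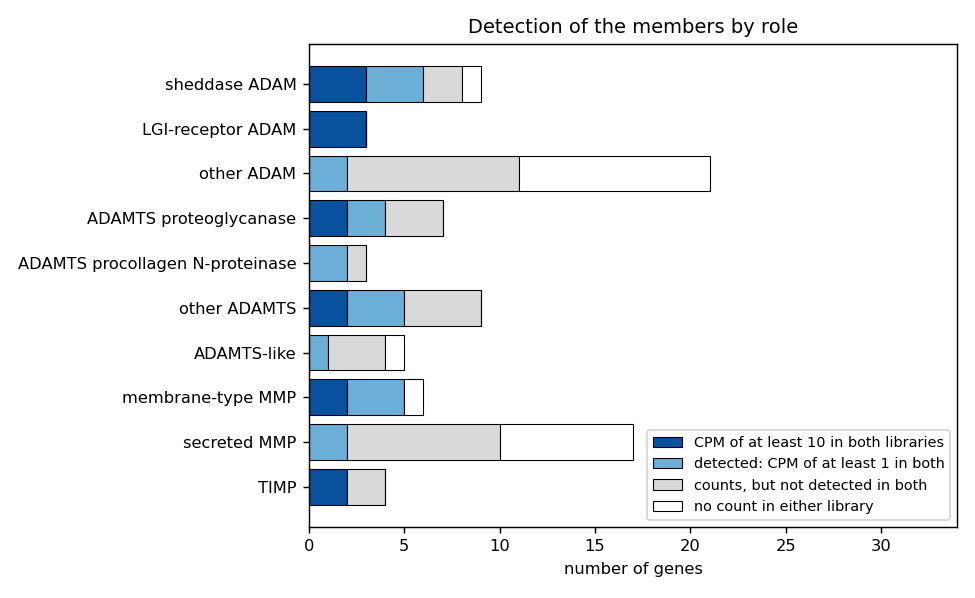
Number of member genes in each role (horizontal bars, starting at 0), split into those with 10 CPM or more in each library, those with 1 CPM or more in each, those with counts but not detected, and those with no count. All 3 LGI-receptor ADAM genes are in the highest class, while 10 of 21 other ADAM genes and 7 of 17 secreted MMP genes have no count.

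The share detected varied by role. The LGI-receptor ADAM genes were detected in 3 of 3 cases, the membrane-type MMP genes in 5 of 6, the sheddase ADAM genes in 6 of 9, the ADAMTS genes in 11 of 19 and the TIMP genes in 2 of 4. Far fewer were detected among the 21 other ADAM genes, which are known mainly from the testis and epididymis (2), the 17 secreted MMP genes (2) and the 5 ADAMTS-like genes (1). The plot of detection by role shows these counts.

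The reads of the family came mostly from a few genes, in part long ones. All members together took 0.121% of the gene total in A and 0.182% in B. The 3 LGI-receptor ADAM genes held 50.1% of the members' counts in A (Wilson 95% interval 49.1 to 51.1) and 53.1% in B (52.5 to 53.7). These intervals cover the counting of reads only and not the variation between libraries. Corrected for length, the 3 genes made up 27.6% of the members' summed CPM/kb in A and 31.8% in B. Of the members' counts, not corrected for length, the sheddases held 16.4% in A and 15.4% in B. The TIMPs held 11.6% of the counts in A and 9.34% in B, and the membrane-type MMPs 8.08% in A and 9.90% in B. Summed per length, the LGI receptors also came first and the membrane-type MMPs last of these groups, while the TIMPs stood above the sheddases in A and below them in B. The sums were 43.0 CPM/kb in A and 68.7 CPM/kb in B for the LGI receptors, 35.8 and 40.2 CPM/kb for the TIMPs, 32.9 and 45.5 CPM/kb for the sheddases and 15.8 and 29.8 CPM/kb for the membrane-type MMPs. Within the 33 ADAM genes, those without the zinc-binding motif made up 60.2% of the summed level per length in A and 59.3% in B.

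**Figure D2:**
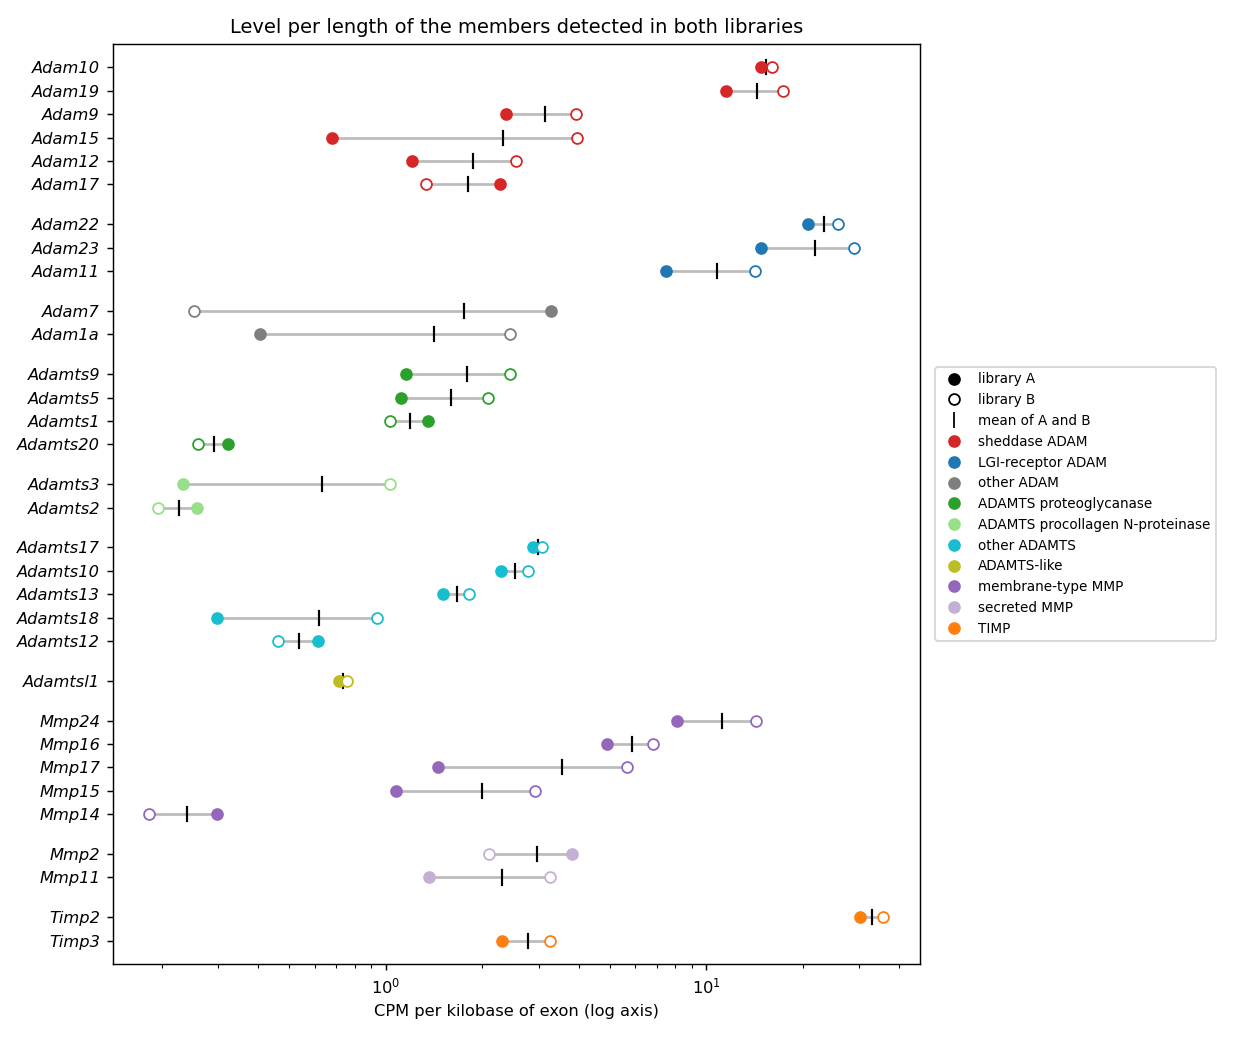
Level in CPM per kilobase of exon (log axis) of the 32 members detected in both libraries, grouped by role and ordered by the mean. Filled circles are library A, open circles library B and the black bar their mean; Timp2, Adam22, Adam23, Adam10 and Adam19 lie farthest to the right.

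The highest mean levels among the ADAM genes were those of members that lack the zinc-binding motif. Adam22, Adam23 and Adam11 code for neuronal surface proteins that bind the secreted LGI proteins, and Adam22 is known to link LGI1 to potassium channels and AMPA receptors. Adam22 stood at 297 CPM in A and 369 CPM in B (20.7 and 25.8 CPM/kb). Adam23 stood at 266 CPM in A and 515 CPM in B, or 14.8 and 28.8 CPM/kb. Adam11, the least abundant of the trio, stood at 42.3 CPM in A and 80.4 CPM in B, or 7.46 and 14.2 CPM/kb. All 3 lay within 2-fold between the libraries.

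Adam22 and Adam23 could not be separated. Their ratio per length was 1.07, and its 95% interval, built from the counting error and the dispersion that edgeR fits along expression level, was 0.397 to 2.86. The higher of the pair was Adam22 in A and Adam23 in B. Adam23 over Adam11 had a ratio of 2.01 (0.782 to 5.19), close to the same value in both libraries (1.99 in A and 2.03 in B). Without length correction its log2 value was 2.67 and the interval excluded 1, since the exons of Adam23 sum to 17.9 kilobases and those of Adam11 to 5.67. Of the 4 LGI ligand genes 3 were detected. Per length Lgi3 was the highest in A and Lgi1 in B, with Lgi1 at 7.10 CPM/kb in A and 12.6 CPM/kb in B, Lgi3 at 11.4 CPM/kb in A and 3.60 CPM/kb in B, and Lgi2 at 1.39 CPM/kb in A and 2.88 CPM/kb in B. Lgi4 had 0 counts in A and stood at 0.509 CPM in B.

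Among the active sheddases Adam10 and Adam19 led. Adam10, the alpha-secretase of the amyloid precursor protein and a sheddase of Notch, N-cadherin and ephrins, stood at 72.5 CPM in A and 78.9 CPM in B, or 14.8 and 16.1 CPM/kb. Its libraries differed by 1.09-fold, one of the 3 smallest gaps among the detected members. Adam19, which cuts neuregulins, stood at 82.0 CPM in A and 123 CPM in B, or 11.5 and 17.3 CPM/kb. The ratio of Adam10 to Adam19 per length was 1.07 (0.455 to 2.502), so their order was not resolved. Against the most abundant inactive ADAM the interval also held 1, with Adam22 over Adam10 at 1.51-fold per length (0.613 to 3.71).

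The other widely known sheddase, Adam17 (the tumour necrosis factor alpha converting enzyme), was much lower than Adam10. It stood at 16.3 CPM in A and 9.53 CPM in B, or 2.28 and 1.33 CPM/kb. Adam10 exceeded Adam17 8.53-fold per length (3.17 to 23.0), with 6.48-fold in A and 12.05-fold in B. Adam9, whose loss causes cone-rod dystrophy in humans, stood at 9.73 CPM in A and 16.1 CPM in B. Per length it reached 0.204-fold of Adam10 (0.0753 to 0.550). Adam12 stood at 12.8 CPM in A and 26.9 CPM in B, and Adam15 at 4.17 CPM in A and 24.3 CPM in B, so that Adam15 was far apart between the libraries. Of the Adam15 exon bases, 20.6% are shared with an antisense gene that the files do not list. Adam8, a protease of immune cells, had 0 counts in A and 14 in B, Adam28 had 5 in A and 12 in B, and Adam33 had none in either.

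The partners that ADAM10 and ADAM17 need were unequally read. The iRhoms Rhbdf1 and Rhbdf2, without which ADAM17 does not mature, were both below 1 CPM, with Rhbdf1 at 0.253 CPM in A and 0.873 CPM in B and Rhbdf2 at 0 CPM in A and 0.146 CPM in B. Of the 6 TspanC8 tetraspanins, which escort ADAM10 to the surface, Tspan17 (18.7 CPM in A and 23.2 CPM in B) and Tspan5 (11.2 CPM in A and 32.9 CPM in B) were detected. Tspan14 had 1 count in A and 135 in B, and Tspan33 had none. Of the 4 convertases that can remove protease prodomains, Furin stood at 7.58 CPM in A and 16.6 CPM in B and Pcsk7 at 35.7 CPM in A and 13.1 CPM in B, while Pcsk5 and Pcsk6 were not detected.

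Of 13 genes for known shed proteins 12 were detected. App stood at 1078 CPM in A and 1215 CPM in B, L1cam at 3522 CPM in A and 2363 CPM in B, and Ncam1 at 1299 CPM in A and 1912 CPM in B, while Notch2 stood at 1.26 CPM in A and 4.07 CPM in B. The receptor gene Notch1, at 0.884 CPM in A and 4.29 CPM in B, was the 1 not detected. All 7 genes of gamma-secretase and the beta-secretase Bace1, which act on many of the same proteins, were detected, with Bace1 at 87.8 CPM in A and 67.6 CPM in B. Over all 41 partner and substrate genes 29, or 70.7%, were detected. The share was 46.8% of all gene symbols and 53.1% of symbols matched to a protein-coding gene, and no test was made of it. By an exact binomial test of the 2 libraries, adjusted over all genes tested, 35 of the 41 had enough counts, and 3 of these (8.57%) were higher in A and 11 (31.4%) higher in B. Of all genes tested 10.3% were higher in A and 32.3% higher in B.

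The 21 other ADAM genes contributed few reads, and those that had reads differed widely between the libraries. Adam7, known from the epididymis, stood at 14.1 CPM in A and 1.09 CPM in B, and Adam1a, known from sperm, at 3.03 CPM in A and 18.3 CPM in B. These were the 2 detected. Adam5 stood at 14.1 CPM in A and 0.800 CPM in B. Adam4 had 0 counts in A and 39 in B, Adam1b had 1 in A and 11 in B, and Adam2, Adam20, Adam25 and Adam26b had at most 3 in either library. No count was found for Adam3, Adam6a, Adam6b, Adam18, Adam24, Adam26a, Adam29, Adam30, Adam34 and Adam39. Reads that align to several places were left out of the gene counts. How many such reads came from these genes was not measured, so their zeros are uncertain. The exons of Adam1a overlap those of Mapkapk5 on the same strand (24.0% of the Adam1a exons), which stood at 17.2 CPM in A and 19.4 CPM in B. A further 63.7% are shared with Gm42878, which the files do not list, so the count of Adam1a is uncertain.

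The secreted ADAMTS proteases summed to 12.3 CPM/kb in A and 19.2 CPM/kb in B over all 19 genes, less than Adam10 and Adam19 together. Among those that cut proteoglycans, Adamts9 stood at 17.4 CPM in A and 36.7 CPM in B (1.16 and 2.44 CPM/kb), Adamts5 at 12 CPM in A and 22.5 CPM in B (1.11 and 2.08 CPM/kb), and Adamts1 at 7.20 CPM in A and 5.46 CPM in B (1.36 and 1.03 CPM/kb). Adamts9 over Adamts5 was 1.13-fold per length (0.401 to 3.16). Adamts20 was also detected, at 2.91 CPM in A and 2.33 CPM in B. Adamts4 had 1 count in A and 77 in B, Adamts15 had 3 in A and 31 in B, and Adamts8 had 0 in A and 3 in B. Of their lectican substrates, Ncan stood at 650 CPM in A and 851 CPM in B and Vcan at 89.4 CPM in A and 80.5 CPM in B, while Bcan had 0 counts in A and 10 in B and Acan had none.

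Adamts17 and Adamts10 had the highest levels per length of the ADAMTS genes. Both are tied to short stature with lens dislocation in humans and act on fibrillin matrix. Adamts17 stood at 22.4 CPM in A and 23.9 CPM in B (2.88 and 3.07 CPM/kb), a gap of 1.07-fold, and Adamts10 at 18.9 CPM in A and 22.9 CPM in B (2.30 and 2.78 CPM/kb). Their ratio per length was 1.17 (0.446 to 3.09). Adamts13, which cuts von Willebrand factor, stood at 7.45 CPM in A and 8.95 CPM in B, and Adamts12 at 6.70 CPM in A and 5.02 CPM in B, whereas Adamts18 was higher in B (3.03 CPM in A and 9.53 CPM in B). Adamts6, Adamts7 and Adamts19 had no count in A and 23, 52 and 32 in B, and Adamts16 had 3 in A and 55 in B.

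The procollagen-processing ADAMTS genes were low. Adamts3 stood at 1.26 CPM in A and 5.60 CPM in B and Adamts2 at 2.40 CPM in A and 1.82 CPM in B, with a ratio per length of 2.80 (0.822 to 9.53) that was 0.905 in A and 5.30 in B. Adamts14 had 4 counts in A and 5 in B. Of the ADAMTS-like genes only Adamtsl1 was detected, at 9.10 CPM in A and 9.68 CPM in B (0.712 and 0.758 CPM/kb). Adamtsl3, Adamtsl4 and Adamtsl2 had at most 5 counts in A and 15 in B, and Adamtsl5 had none.

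The MMP reads came mainly from membrane-anchored enzymes. Mmp24 (MT5-MMP), an enzyme of neurons that can cut N-cadherin, stood at 38.0 CPM in A and 66.7 CPM in B, or 8.12 and 14.2 CPM/kb. Mmp16 (MT3-MMP) stood at 42.3 CPM in A and 59.2 CPM in B, or 4.88 and 6.82 CPM/kb. Mmp24 over Mmp16 was 1.91-fold per length (0.797 to 4.58), and Mmp24 was the higher in both libraries. Mmp17 (MT4-MMP), which is held by a lipid anchor and is also known as a marker of ON-OFF direction-selective ganglion cells, stood at 9.60 CPM in A and 37.4 CPM in B. Mmp24 over Mmp17 was 3.15-fold per length (1.15 to 8.63), with 5.60-fold in A and 2.52-fold in B, but in B alone the interval held 1, with a log2 ratio of 1.33 (-0.52 to 3.19). Mmp15 (MT2-MMP) stood at 5.81 CPM in A and 15.8 CPM in B, and Mmp25 had no count. Mmp24 shares 13.6% of its exon bases with BC029722 on the opposite strand, which stood at 0.253 CPM in A and 1.09 CPM in B.

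Mmp14 (MT1-MMP), the activator of pro-MMP2 on many cell surfaces, was close to the limit of detection, with 14 counts in A and 15 in B, or 1.77 and 1.09 CPM. Mmp16 exceeded it 24.4-fold per length (8.83 to 67.4), with 16.5-fold in A and 37.3-fold in B. Mmp2 itself (gelatinase A) stood at 12.9 CPM in A and 7.06 CPM in B, or 3.82 and 2.09 CPM/kb, and Mmp14 was 0.0811-fold of it (0.0252 to 0.261). The other secreted MMP detected was Mmp11 (stromelysin 3), at 3.79 CPM in A and 9.02 CPM in B. Mmp2 over Mmp11 was 1.28-fold per length (0.374 to 4.40), with 2.80-fold in A and 0.645-fold in B. Mmp9 (gelatinase B) had 0 counts in A and 6 in B, Mmp19 had 1 in A and 52 in B, and no count was found for Mmp1a, Mmp1b, Mmp3, Mmp7, Mmp8, Mmp21 and Mmp27. Mmp10, Mmp12, Mmp13, Mmp20, Mmp23 and Mmp28 had at most 1 count in A and 4 in B.

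Timp2 had the highest level per length of all 84 members. It codes for an inhibitor of MMPs that also takes part in the activation of pro-MMP2. It stood at 118 CPM in A and 139 CPM in B, or 30.2 and 35.7 CPM/kb, and ranked 1002 among 23621 genes with a length. The gap between its libraries was 1.18-fold. Timp3, a matrix-bound inhibitor that also blocks ADAM17 and some ADAMTS enzymes and is mutated in Sorsby fundus dystrophy, stood at 18.8 CPM in A and 26.6 CPM in B, or 2.31 and 3.26 CPM/kb. Timp2 exceeded Timp3 11.8-fold per length (4.69 to 29.8) and Mmp14 137-fold (49.6 to 380). Timp3 over Adam17 was 1.54-fold (0.539 to 4.42), with a log2 ratio of 0.02 in A and 1.29 in B. Timp3 lies within Syn3, with 21.3% of its exon bases shared on the opposite strand, and Syn3, a synapsin gene, stood at 601 CPM in A and 792 CPM in B. The use of strand in counting is not stated in the labels, and the level of Timp3 is uncertain for that reason. Timp1 stood at 2.91 CPM in A and 0.582 CPM in B, and Timp4 had 1 count in A and 53 in B. Reck, a membrane-bound inhibitor of MMPs, stood at 11.7 CPM in A and 10.2 CPM in B.

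**Figure D3:**
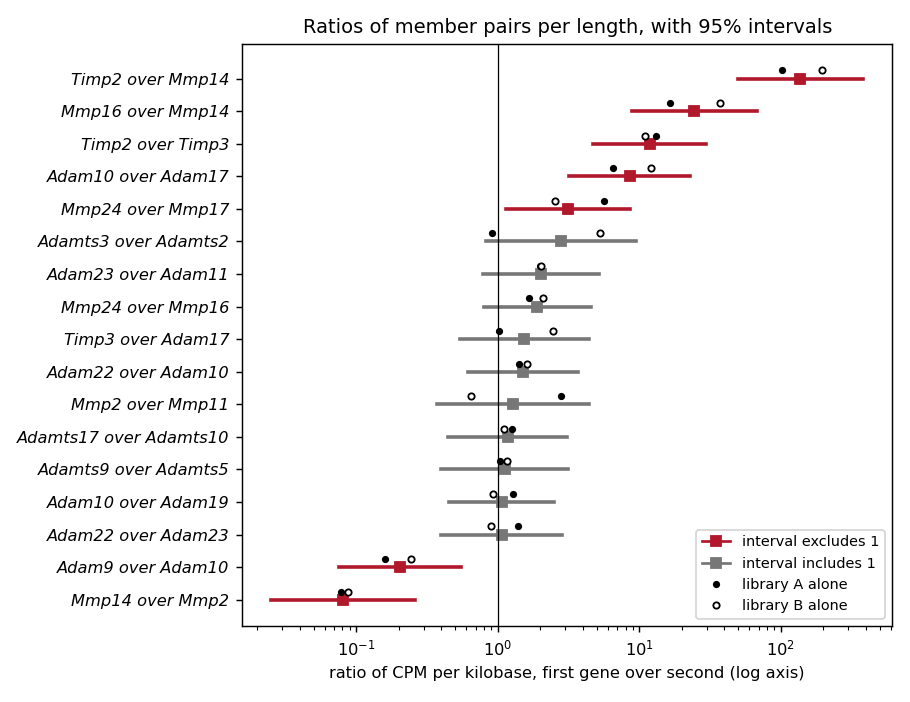
Ratio of the level per length of 2 members (log axis, first gene over second) for 17 pairs, with squares for the mean over both libraries, lines for the 95% interval, and small filled and open circles for library A and library B alone. In 7 pairs, drawn in red, the interval excludes 1, among them Adam10 over Adam17 at 8.53 and Timp2 over Timp3 at 11.8.

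Of 19 pairs set by role or by rank within a role, 17 had a dispersion for both genes. The 95% interval of the ratio per length excluded 1 in 7 of them, as the plot of pair ratios shows. All 10 others, which include 7 of the comparisons of a role's highest member with its next, held 1. An interval that holds 1 does not show that the levels were equal. Adam5 over Adam7 and Adamtsl1 over Adamtsl4 had no interval, since Adam5 and Adamtsl4 did not pass edgeR's expression filter.

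The 2 libraries were then compared gene by gene with an exact two-sided binomial test on their counts. The p-values were adjusted by Benjamini-Hochberg over all 14107 genes with at least 10 counts, and a gene was called at an adjusted p under 0.05 with at least a 2-fold change of (CPM + 0.5). This compares 2 separately amplified libraries and no condition. Of the 50 members tested 24 were called, or 48.0%, against 42.6% of all genes tested. Library A was higher for 5 of the 50, where it was higher for 10.3% of all genes tested, and B for 19, or 38.0%, against 32.3%. No test was made of these shares, and other scalings move them. Of the 32 detected members, 22, or 68.8%, lay within 2-fold between the libraries, and 64.3% of all detected genes did. Across the 64 members with a count, Spearman's rho of the CPM in A and B was 0.796 and Pearson's r of log2(CPM + 0.5) was 0.863, as a description over genes that share both libraries.

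**Figure D4:**
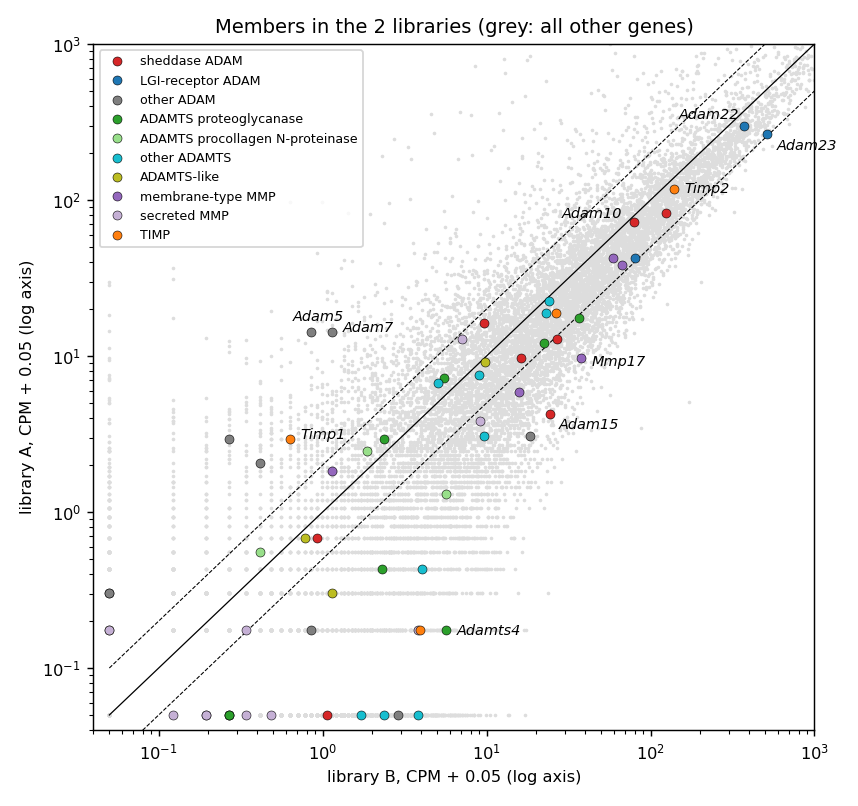
CPM + 0.05 of the members in library A against library B (log axes), coloured by role, over all other genes in grey. The solid line marks equal levels and the dashed lines a 2-fold difference; Adam5 and Adam7 lie far above the lines, with 14.1 CPM each in A, and Adam15, Mmp17 and Adamts4 below them.

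The other ADAM group gave 4 of the 5 members called higher in A. Of its 7 members tested these 4 were higher in A and 2 higher in B, where 10.3% and 32.3% of all genes were. Adam5 was 17.7-fold higher in A (adjusted p = 2.07e-35, exact binomial test) and Adam7 13.0-fold higher (adjusted p = 2.34e-32, same test). Adam21 stood at 2.02 CPM in A and 0.364 CPM in B, and Adam32 at 2.91 CPM in A with 3 counts in B. The fifth was Timp1, at 4.99-fold (adjusted p = 8.16e-05, exact binomial test). Of the 5 mural cell genes 3 were called higher in A, namely Rgs5 (342 CPM in A and 82.4 CPM in B), Pdgfrb (51.9 CPM in A and 10.3 CPM in B) and Kcnj8 (9.98 CPM in A and 2.76 CPM in B). Acta2 (2.78 CPM in A and 1.67 CPM in B) and Cspg4 (11.1 CPM in A and 14.5 CPM in B) were not called. No mural marker was at 0, and the part of such cells in the level of Timp1 was not tested.

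Of the 19 members called higher in B, 9 were ADAMTS genes. That is 9 of the 17 ADAMTS genes tested, or 52.9%, where 32.3% of all genes were higher in B, and 0 of the 17 were called higher in A, where 10.3% of all genes were. No test was made of these shares. The largest with counts in both libraries above 3 were Adam1a, at 6.02-fold (adjusted p = 2.47e-25, exact binomial test), Adam15, at 5.83-fold (adjusted p = 8.41e-33), and Adamts3, at 4.43-fold (adjusted p = 5.94e-07). Mmp17 was 3.90-fold higher in B (adjusted p = 5.46e-37, exact binomial test), and Adamts18, Mmp15, Mmp11, Adam12 and Adamts9 were between 2.10-fold and 3.14-fold higher. For the genes with no count in A, taken at 3 counts there, B was at least 9.98-fold higher for Adamts7, 7.49-fold for Adam4, 6.14-fold for Adamts19, 4.42-fold for Adamts6 and 2.69-fold for Adam8. Adamts4, Mmp19, Timp4, Adamts16 and Adamts15, called too, had 1 to 3 counts in A. Library B held more reads than A. Of the 6 endothelial genes listed 4 were called higher in B. Kdr (4.67 CPM in A and 4.73 CPM in B) was not called, and Cldn5 had 0 counts in A and 1 in B. Over all 58 marker genes listed, some of which had too few counts to be tested, 15 were called higher in B and 9 higher in A. Of all genes tested, 32.3% were higher in B and 10.3% higher in A. The part of depth or of other cells in these differences was not tested.

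Scaling moved some of these calls. TMM and DESeq2 size factors raise the log2 ratio of plain CPM in A over B by 0.38 and 0.48. The tested ratio of (CPM + 0.5) moves less at low levels. Adam12, Adamts9 and Mmp11 were then no longer called higher in B, nor was Mmp15 with DESeq2 factors, while Adam17 and Mmp2 were called higher in A. The split became 7 higher in A and 16 in B with TMM and 7 and 15 with DESeq2 factors, of 50 members tested. Over all genes tested 14.7% were higher in A and 23.0% in B with TMM, and 16.1% and 21.0% with DESeq2 factors. The members' shares were 14% and 32% with TMM and 14% and 30% with DESeq2 factors. The balance of calls moved too, since 31.8% of the members' calls with DESeq2 factors were higher in A, against 20.8% of those with gene totals. It moved the same way over all genes tested. There 1458 were called higher in A and 4550 in B with gene totals, and 2278 and 2960 with DESeq2 factors. Adam7 and Mmp14 fell under 1 CPM in B with either factor, which left 30 members detected.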

How the data were processed

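RNA of 2 libraries of J-RGCs was extracted with a PicoPure kit and made into cDNA libraries with the Nugen Ovation Ultralow V2 kit, per the labels' protocols. The deposited values are raw counts of reads for each gene symbol, in a file for A and another for B. The authors used mm9, HTSeq 0.6.1, TopHat2 2.0.10 and Trimmomatic 0.32, per the submitters' processing notes. Sources used here do not give settings, annotation or strand. Summary lines were kept out of totals. Genes took 26.8% of the listed reads in A and 30.9% in B, and reads that aligned to several places 18.5% and 20.8%. The largest class was reads that fell in no counted gene, at 54.3% in A and 47.9% in B. Separate litters make these biological replicates, and 2 of them give little precision.

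From the counts, CPM was computed on the gene totals. Exon lengths are the union of GENCODE M21 exons by symbol, on another build than the counts, so no coordinates are given. All 84 members matched. A quasi-likelihood contrast in edgeR needs a second group and could not be made. Ratio intervals combine counting error with the trended dispersion of an intercept-only edgeR 4.0.16 fit over 11272 genes (R 4.3.3; coefficient of variation 0.507), without adjustment over pairs. DESeq2 1.42.0 was an alternative. Python 3.11.15, scipy 1.17.1, pandas 2.3.3 and biopython 1.88 served for the rest. The binomial step was tried on counts simulated with counting error only, which cannot show how it behaves under variation between libraries. The ratio intervals were tried on counts simulated with such variation. The named genes are members at 10 CPM in both libraries, the 3 highest detected of each role, members of the pairs, and called members apart by at least 4-fold with 1 CPM in a library. The genes, lists and pairs were chosen with earlier results of these data known. Other members and partner genes are named to account for them.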

Additional observations from a re-analysis of the deposited data

How the results depend on the processing

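The number of members detected, 32 in the main setting, depended on the threshold, from 23 members at 5 CPM to 36 at 0.5 CPM. It was from 36 to 43 with 1 library left out. No share over all genes was taken at 5 CPM or 0.5 CPM. The number of members beyond counting noise was 13 with a change of at least 4-fold (3 higher in A and 10 higher in B). When at least 50 counts were required, the number higher in A was 2. No share over all genes was taken at these settings, so these counts have no background beside them. The median log2 level of members with a count was -0.95, moved to 1.88 without length correction and 0.26 with members of at least 10 counts only, and ranged from -1.40 to -0.49 with 1 library left out. The number of pairs whose interval excluded 1 was 7, or 8 with the longest transcript as length or without length correction, and 7 without either library. These 5 ratios turned round, all with intervals that held 1. Adam22 over Adam23 had a log2 ratio of -0.75 with the longest transcript, -0.23 without length correction, and from -0.16 without library A to 0.48 without library B. Adam10 over Adam19 had -0.44 without length correction and from -0.11 without library A to 0.36 without library B. Adamts3 over Adamts2 ranged from -0.14 without library B to 2.40 without library A, Adamts17 over Adamts10 had -0.50 with the longest transcript, and Mmp2 over Mmp11 ranged from -0.63 without library A to 1.49 without library B. Mmp24 over Mmp17 no longer excluded 1 without length correction, at 1.16, or without library A. Adam23 over Adam11 (2.34 with the longest transcript) and Adam22 over Adam10 (2.14 without length correction) then excluded 1, as did Adamts3 over Adamts2 without library A. Leaving out a library widens each interval by construction. With DESeq2 dispersion and size factors the intervals of the pairs with Mmp14 were wider but still excluded 1. Their log2 ratios were 7.03 (4.13 to 9.92) for Timp2 over Mmp14 and 4.51 (1.60 to 7.43) for Mmp16 over Mmp14. For Mmp14 over Mmp2 the log2 ratio was -3.64 (-6.75 to -0.52). No paired analysis was possible because there is 1 group. Depth limits the members with few counts, since levels under 0.379 CPM in A or 0.218 CPM in B cannot be told from 0 by counting.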

Other observations

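Members that lie side by side among the annotated protein-coding genes were read alike in some runs and not in others. A run of 9 MMP genes (Mmp13, Mmp12, Mmp1b, Mmp3, Mmp10, Mmp8, Mmp27, Mmp20 and Mmp7) held 2 counts in A and 8 in B over all 9 genes, with no gene detected. In a run of 5 ADAM genes (Adam18, Adam3, Adam5, Adam32 and Adam9) only Adam9 was detected, while Adam5 and Adam32, next to it, were among the genes far higher in A. The run of Adam24, Adam25, Adam20 and Adam39 held 4 counts in A and 0 in B. Adamts1 and Adamts5, which are also neighbours, were both detected.

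Of the 84 members 20 share exon bases with another annotated gene, 8 of the 32 detected ones among them. For Timp4 the shared part was 1.53% of its exon bases, with Syn2 (56.8 CPM in A and 81.7 CPM in B), and for Adam17 it was 4.35%, with Iah1 (2.27 CPM in A and 1.09 CPM in B).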
